A study of Mus musculus with 4 samples.

Results

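The Krüppel-like factors Klf2, Klf3, Klf4, Klf5, Klf6 and Klf9 were read on 4 Affymetrix MG_U74Av2 arrays from mouse embryonic stem (ES) cells and extraembryonic endoderm (XEN) cells. Every probe set annotated to exactly 1 gene symbol among these 6 was taken. This gave 6 of the 8251 genes named on the array and 9 of its 12488 probe sets. Klf3, Klf4 and Klf9 had 2 probe sets each and the other genes 1. The ES group was a single culture of R1 cells, undifferentiated and kept with LIF on gelatin. The XEN group was 3 cultures of 2 lines. IM8A1-I and IM8A1-II were both the IM8A1 line (PO strain) at passage 27, and XEN1-3 (ICR strain) was at passage 18. IM8A1-I and XEN1-3 grew on gelatin in 70% EMFI-CM, whereas IM8A1-II had RPMI 1640 with 20% FBS for 4 days, on plain tissue culture plastic. Each culture was hybridised to 1 array. The labels name LIF for the ES culture alone, so that cell type, medium and chip lot (1 for ES, another for all XEN arrays) cannot be told apart.

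Krüppel-like factors are zinc finger transcription factors that bind GC-rich and CACCC sequences through a conserved C-terminal DNA-binding domain. Klf2, Klf4 and Klf5 form part of the circuit that keeps mouse ES cells undifferentiated, Klf4 mainly downstream of LIF and Stat3. Klf4 and Klf5 also act in epithelia, Klf2 in endothelium and lymphocytes, Klf3 as a repressor that recruits CtBP proteins, Klf6 in responses to injury and stress, and Klf9 as a target of steroid and thyroid hormones.

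The label of the cells was checked against marker genes. All 6 ES markers on the array (Pou5f1, Sox2, Nanog, Zfp42, Dppa5a and Utf1) fell in XEN and all 8 XEN markers (among them Gata4, Gata6, Sox17 and Foxa2) rose. The summed signal of the ES markers was 18994 units in ES and between 51.7 and 53.1 in the XEN cultures. Signal is in arbitrary units, and a background limit was set at 27.3 units, the 40th percentile of all values. The limit does not show whether a transcript was present. The 8582 probe sets that reached it on any array were tested, and differences are on the log2(value + 10.5) scale, which understates the change of dim genes. All 6 ES markers were under the limit on every XEN array, and 5 of the 8 XEN markers were under it in ES. These markers passed this filter only through the group where they were high, so the marker counts are a description. Of the 9 Klf probe sets 8 were tested. The 9th, the Klf4 probe set 161185_i_at, stood at 0.50 units in ES and between 0.30 and 5.30 in the XEN cultures, and gives no information on Klf4.

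Across the 8 tested probe sets, the family did not move as a unit between ES and XEN cells. Klf2 fell. Klf4 and Klf6 stood above the ES value on every XEN array, by a factor of 2.17 and 2.60 at the mean, but did not pass the test. Klf5, Klf3 and Klf9 did not pass either. In limma's moderated test with Benjamini-Hochberg adjustment over all tested probe sets, 1 of the 8 was called at an adjusted p under 0.05, compared with 10.6% of all 8582 (5.05% lower in XEN), so the share of members called was near that of the array.

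**Figure D1:**
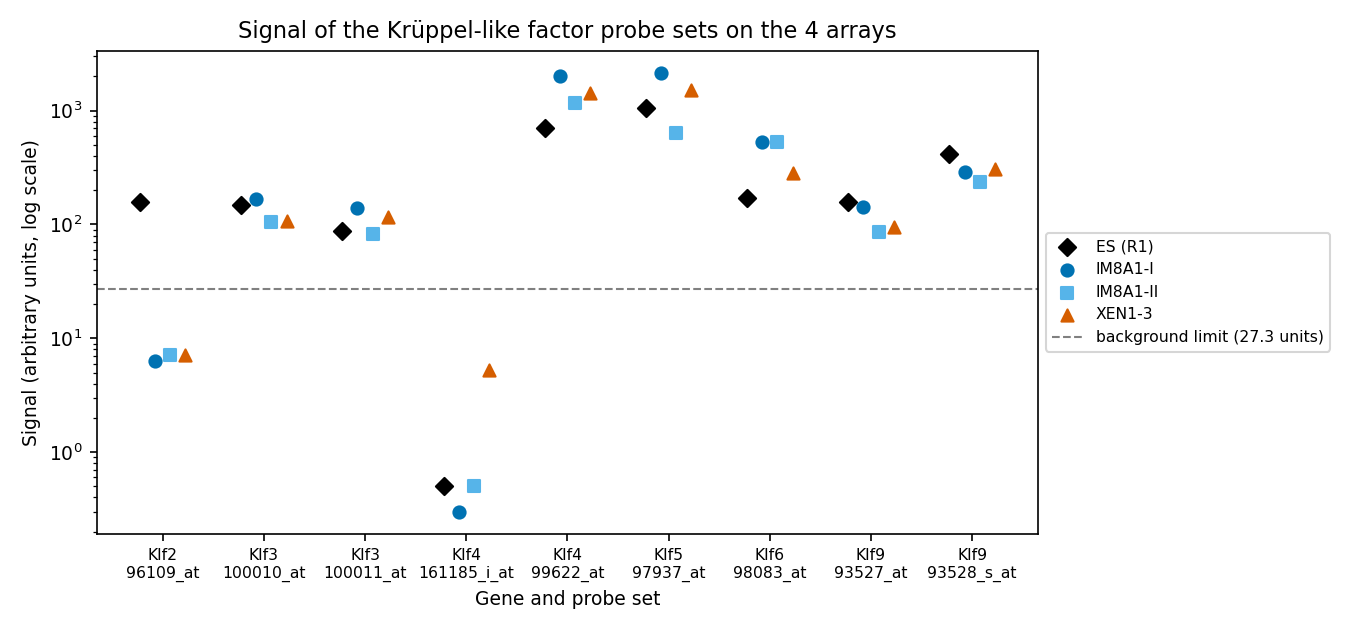
Signal in arbitrary units (log scale) of the 9 Klf probe sets on the ES array and the 3 XEN arrays, 1 point per array, with the background limit of 27.3 units dashed. Klf2 is above the limit in ES alone, while Klf4 (99622_at) and Klf6 have their lowest point in ES.

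Klf2 was the one member called between ES and XEN cells. Its probe set 96109_at stood at 156 units in ES, while the XEN cultures read 6.30 (IM8A1-I), 7.20 (IM8A1-II) and 7.20 (XEN1-3). All 3 XEN values lay under the background limit and within 1 unit of each other, far below ES. Set against the limit, Klf2 was at least 5.73-fold lower in XEN, and the fitted difference was -3.26 ± 0.35 (SE; limma adjusted p = 0.00824, lower in 3 of 3 cultures). The call held in all 12 alternative analyses, with adjusted p between 0.00211 and 0.0280. Klf2 passed the filter on dim probe sets only through its ES value. In such bulk RNA, fewer cells that express a gene and less of its RNA in each cell cannot be told apart.

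The sequence just upstream of the genes is shown for Klf2, the member that fell, and for Klf4 and Klf6, the members that stood higher on every XEN array. The 250 bases before each annotated start were taken from a RefSeq promoter table (GRCm38.p6), which had an entry for 5 of the 6 members and none for Klf5. Capitals mark 3 kinds of match, searched on both strands: the CACCC box (CACCC), a core of Krüppel-like factor sites, the GC box (GGGCGG), bound by Sp and Krüppel-like factors, and the MEF2 consensus site, through which Klf2 is known to be induced in endothelial cells.
Klf2 (chr8:72318812-72319061, plus strand): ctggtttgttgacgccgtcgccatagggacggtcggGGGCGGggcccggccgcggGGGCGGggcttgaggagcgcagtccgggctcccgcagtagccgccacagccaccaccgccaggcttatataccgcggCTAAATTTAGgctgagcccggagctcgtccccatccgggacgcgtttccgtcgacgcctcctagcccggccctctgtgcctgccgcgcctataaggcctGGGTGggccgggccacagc
Klf4 (chr4:55532476-55532725, minus strand): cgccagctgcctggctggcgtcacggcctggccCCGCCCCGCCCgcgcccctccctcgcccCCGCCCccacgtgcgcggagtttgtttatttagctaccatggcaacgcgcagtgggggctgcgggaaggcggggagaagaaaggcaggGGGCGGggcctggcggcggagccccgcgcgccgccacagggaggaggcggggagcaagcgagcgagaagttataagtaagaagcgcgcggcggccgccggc
Klf6 (chr13:5861239-5861488, plus strand): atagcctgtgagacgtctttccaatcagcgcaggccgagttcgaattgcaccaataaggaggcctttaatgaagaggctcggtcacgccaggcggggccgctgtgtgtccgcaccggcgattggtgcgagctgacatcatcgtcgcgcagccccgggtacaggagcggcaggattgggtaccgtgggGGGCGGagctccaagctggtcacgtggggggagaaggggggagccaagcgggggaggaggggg
The Klf2 sequence held 1 CACCC box, 2 GC boxes and 1 MEF2 site. The Klf4 sequence held 4 GC boxes and the Klf6 sequence 1, with no CACCC in either window. Klf3, not printed, held 5 CACCC boxes and 6 GC boxes, with 1 base shared between the 2 kinds, and Klf9 held 1 CACCC box. Among all 32851 such windows, CACCC was present in 52.0%, GGGCGG in 32.7% and the MEF2 site in 2.92%. These are matches of letters, and no binding was measured.

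Klf4, the LIF-responsive member of the pluripotency circuit, was not lost with it. Probe set 99622_at stood at 708 units in ES, while the XEN cultures read 2009 (IM8A1-I), 1176 (IM8A1-II) and 1434 (XEN1-3). The 3 XEN values, with a mean of 1539 ± 426 (SD, n = 3), all lay above ES. The difference of 1.07 ± 0.36 had a 95% interval from 0.19 to 1.96 before adjustment, and it did not pass over all probe sets (limma adjusted p = 0.114). It stayed positive and short of the threshold in all 12 alternatives (0.86 to 1.25; adjusted p from 0.0911 to 0.212).

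Klf6, a widely expressed early-response factor, had a like direction with a different order among the XEN cultures. It stood at 172 units in ES, while the XEN cultures read 531 (IM8A1-I), 533 (IM8A1-II) and 281 (XEN1-3). The IM8A1 cultures were nearly equal, and XEN1-3 lay between them and ES. The XEN mean was 448 ± 145 (SD, n = 3) and the difference 1.27 ± 0.43, with a 95% interval from 0.19 to 2.34 (limma adjusted p = 0.120). Without XEN1-3, which leaves the IM8A1 line alone, the difference was 1.57 and passed (adjusted p = 0.0158). Over the other 11 alternatives it did not pass.

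Klf5, the third factor of the ES cell circuit and a driver of proliferation in epithelia, varied more among the XEN cultures than between them and ES. Probe set 97937_at stood at 1048 units in ES, while the XEN cultures read 2156 (IM8A1-I), 634 (IM8A1-II) and 1516 (XEN1-3). The ES value thus lay inside the XEN range. The difference was 0.28 ± 0.66, with a 95% interval from -1.35 to 1.91 (limma adjusted p = 0.812). Its direction depended on single cultures, being -0.095 without IM8A1-I and 0.78 without IM8A1-II, neither past the threshold.

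For Klf3, the CtBP-recruiting repressor, the probe sets gave opposite signs, neither past the threshold. Probe set 100010_at stood at 148 units in ES, while the XEN cultures read 167 (IM8A1-I), 106 (IM8A1-II) and 108 (XEN1-3). Probe set 100011_at stood at 88.1, 139.7, 82.3 and 116 in the same order. ES lay inside the XEN range on both. The differences were -0.24 ± 0.35 (95% interval -1.10 to 0.63) and 0.29 ± 0.35 (-0.58 to 1.17), with limma adjusted p of 0.688 and 0.622.

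Klf9, the hormone-responsive member, was highest in ES by both of its probe sets, without passing the test. The first, 93527_at, stood at 156 units in ES, while the XEN cultures read 141 (IM8A1-I), 86.0 (IM8A1-II) and 94.4 (XEN1-3). The second, 93528_s_at, stood at 412, 287, 237 and 308 in the same order. The differences were -0.53 ± 0.35 (95% interval -1.40 to 0.34) and -0.56 ± 0.29 (-1.27 to 0.15), with limma adjusted p of 0.364 and 0.250. On both probe sets IM8A1-II had the lowest value. In all, the ES value lay outside the XEN range on 5 of the 8 tested Klf probe sets, against 72.9% of all tested probe sets.

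**Figure D2:**
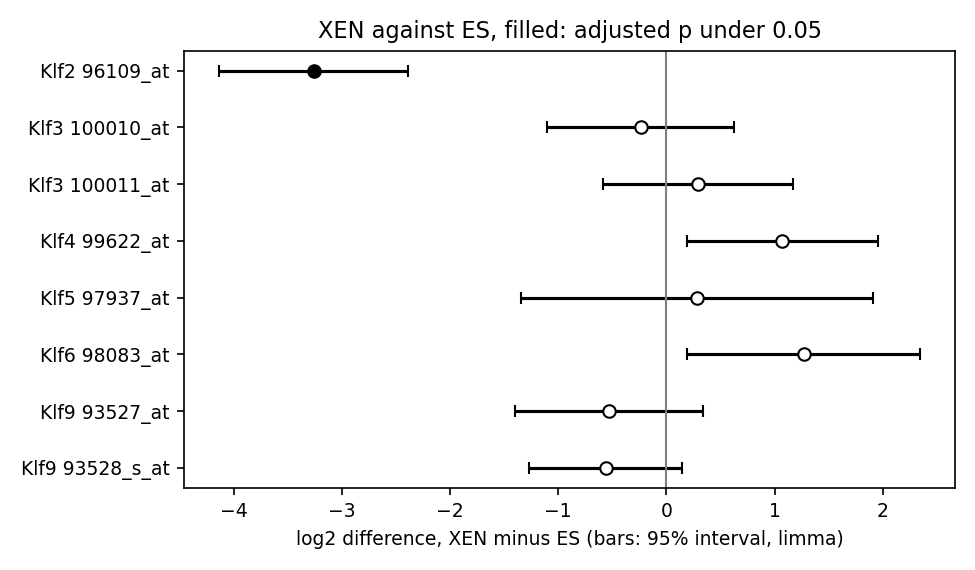
Fitted log2 difference between XEN (3 arrays) and ES (1 array) for the 8 tested Klf probe sets, with 95% intervals before adjustment; the filled point passed an adjusted p under 0.05. Klf2 lies at -3.26, and the intervals of Klf4 and Klf6 start just above 0 at 0.19.

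Within the XEN group, the 2 cultures of the IM8A1 line differed in substrate and medium, and each is 1 array, so no test was made. Klf5 was 3.40-fold higher in IM8A1-I than in IM8A1-II, a log2 difference of -1.75 for IM8A1-II minus IM8A1-I. It was the only Klf probe set at least 2-fold apart, 1 of 8 against 5.98% of all tested probe sets. Klf4 (-0.77), Klf3 (-0.61 and -0.69) and Klf9 (-0.66 and -0.27) were also lower in IM8A1-II by less than 2-fold. Klf6 differed by 0.01. Of 6 tested visceral endoderm markers, 4 were at least 2-fold higher in IM8A1-II, against 3.39% of all genes tested. Afp, counted among the 4, and Hnf4a, which was not, reached the limit in IM8A1-II alone (50.7 and 37.2 units). The count is therefore a description. The summed signal of the 8 visceral endoderm markers on the array was 5587 units in IM8A1-II. IM8A1-I had 1882, XEN1-3 had 1368 and ES had 1923. Apoe alone gave 1836 of the ES units, and Cubn, Rbp4, Ttr, Hnf4a and Afp were under the limit in ES. In IM8A1-II, Rbp4 gave 2671 units and Cubn 1751, whereas in IM8A1-I Rbp4 gave 171 and Cubn 1485. Of this list Apoa1 and Apob never reached the limit. The part of such markers in the Klf5 difference was not tested.

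Between the lines in the same medium, XEN1-3 against IM8A1-I, 0 of the 8 Klf probe sets were at least 2-fold apart, while 9.11% of all tested probe sets were. Klf6 came closest at -0.90, followed by Klf3 100010_at at -0.58 and Klf9 93527_at at -0.54. Klf5 stood at -0.51 and Klf4 at -0.48. IM8A1-I thus had the highest XEN value of Klf4, Klf5, both Klf3 probe sets and Klf9 93527_at. The run record of XEN1-3 carries a message that no fluid was detected, and these contrasts have no replicate check.

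**Figure D3:**
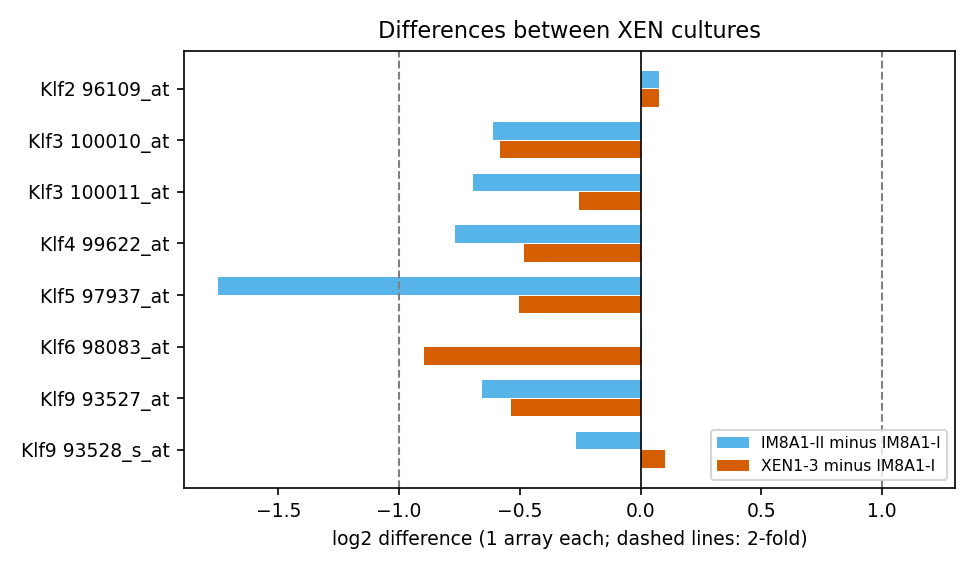
Log2 differences of IM8A1-II and XEN1-3 from IM8A1-I for the 8 tested Klf probe sets, 1 array each, with dashed lines at 2-fold. The Klf5 bar for IM8A1-II reaches -1.75, and no bar for XEN1-3 crosses the line.

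Markers of other cells that the cultures could hold were read beside the Klf genes, and in both lists they differed among themselves. Of 6 tested fibroblast and feeder cell markers, 1 fell and 0 rose (16.7%, against 11.0% of all genes tested), the call being Thy1. At an unadjusted p under 0.05, 4 were lower and 1 higher. Thy1 (48.5 units) and Prrx2 (52.9), both among the lower, reached the limit in ES alone, so these counts are a description. Col1a2, a collagen chain, stood at 206 units in ES and 352, 353 and 403 in the XEN cultures (IM8A1-I, IM8A1-II, XEN1-3), a difference of 0.81 without passing (limma adjusted p = 0.110). It thus lay above ES on every XEN array, as Klf4 and Klf6 did. So did the dim Lum (10.9 in ES, 18.2 to 28.6 in XEN), but Lum reached the limit in XEN1-3 alone. The summed signal of the 11 markers on the array was 1080 units in ES and between 552 and 753 in XEN, and 538 of the ES units came from Tagln, a smooth muscle and fibroblast gene. Col3a1, Postn, Prrx1, Lox and Dcn never reached the limit. Of 6 tested trophoblast markers 1 fell and 0 rose (16.7%). The call was Tfap2c, which gave 767 of the 993 units to which the 9 markers on the array summed in ES. The XEN sums were 133 to 149. Tfap2c, Krt7, Eomes and Ascl2 reached the limit in ES alone, and Gata3 in XEN cultures alone, so the count is a description. Gata3 stood at 18.9 in ES and 29.9, 23.4 and 30.6 in XEN, and Hand1 in ES (64.5) lay inside the XEN range (20.8 to 68.9). Cdx2, Elf5 and Tpbpa never reached the limit. The part of these markers in the results for Klf2, Klf4 and Klf6 was not tested.

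Other members of the wider Klf and Sp family on the array were Klf1, Klf7, Klf10, Klf12, Klf13, Klf17, Sp1, Sp3 and Sp4, and Klf12 and Sp4 never reached the limit. Of the 7 genes tested, 0 passed in limma, against 11.0% of the 6351 genes tested with 1 probe set each. At an unadjusted p under 0.05, 2 were lower and 0 higher. Klf10, a TGF-beta-inducible repressor, stood at 685 units in ES and 269, 226 and 104 in the XEN cultures, listed in the order IM8A1-I, IM8A1-II, XEN1-3 (log2 difference -1.83 ± 0.53, limma adjusted p = 0.0847). Its other probe set showed -2.45 (adjusted p = 0.0944). Sp3, a ubiquitous GC box factor, stood at 514 in ES and at 308, 292 and 284 in the XEN cultures (-0.78 ± 0.26, adjusted p = 0.110), and Sp1 at 361 against 254, 154 and 102 (-1.13, adjusted p = 0.192). Klf13 was higher in XEN by both probe sets without passing, at 0.59 and 0.67.

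Among genes of the signals that feed into Klf genes, 2 of 17 tested rose, 0 fell and 15 did not pass (11.8%, against 11.0% of all genes tested; median log2 difference 0.22 against 0.03). The first was Mef2a, a MADS-box factor of the family that acts on the Klf2 promoter. It stood at 47.0 units in ES and 214, 214 and 241 in the XEN cultures, a rise of 2.02 ± 0.27 (limma adjusted p = 0.0131). The second was Lifr, the LIF receptor, at 119 in ES and 1399, 665 and 672 in the XEN cultures, a rise of 2.74 ± 0.48 (adjusted p = 0.0265). With values raised to the background limit Lifr did not pass (adjusted p = 0.100). Of its 4 further tested probe sets 3 also passed as higher and 97006_s_at did not (adjusted p = 0.0504). The cytokine receptor kinases Jak2 and Tyk2 differed by 1.25 and 0.87 without passing (adjusted p of 0.0640 and 0.142), and so did Mef2d by 0.69. Stat3, the LIF effector upstream of Klf4, stood at 301 in ES and 557, 441 and 409 in XEN, a difference of 0.61 ± 0.30 (adjusted p = 0.231). Ptpn11, Mef2c, Nr3c1 and Pgr never reached the limit.

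Among proteins that bind or modify Klf factors, 4 of 16 tested genes fell, 0 rose and 12 did not pass (25% called, against 11.0% of all genes tested; median -0.30 against 0.03). They were Parp1, a nuclear ADP-ribosylating enzyme, at 674 units in ES and 153, 183 and 149.7 in the XEN cultures (-2.00 ± 0.28, limma adjusted p = 0.0143), the deacetylase Hdac1 (-1.55), the corepressor scaffold Sin3a (-1.29) and the histone chaperone Set (-1.16). Without IM8A1-I none of these 4 passed (adjusted p of 0.0506, 0.0793, 0.112 and 0.104). Without IM8A1-II, Hdac1, Sin3a and Set did not (0.0627, 0.0972 and 0.0994). Sin3a also missed it with each XEN line counted once (0.0784). Set missed it in 9 of the 12 alternatives (adjusted p up to 0.104), among them quantile normalization (0.0517), no filter (0.0688) and no variance trend (0.0636), while its other probe set passed as lower at -1.76 (adjusted p = 0.0268). Ctbp2, the corepressor recruited by Klf3, stood at 1077 in ES and 225, 299 and 459 in XEN without passing (-1.74 ± 0.43, adjusted p = 0.0572). Its relative Ctbp1 stood at 319 in ES and 376, 404 and 470.5 in XEN (0.37, adjusted p = 0.419).

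**Figure D4:**
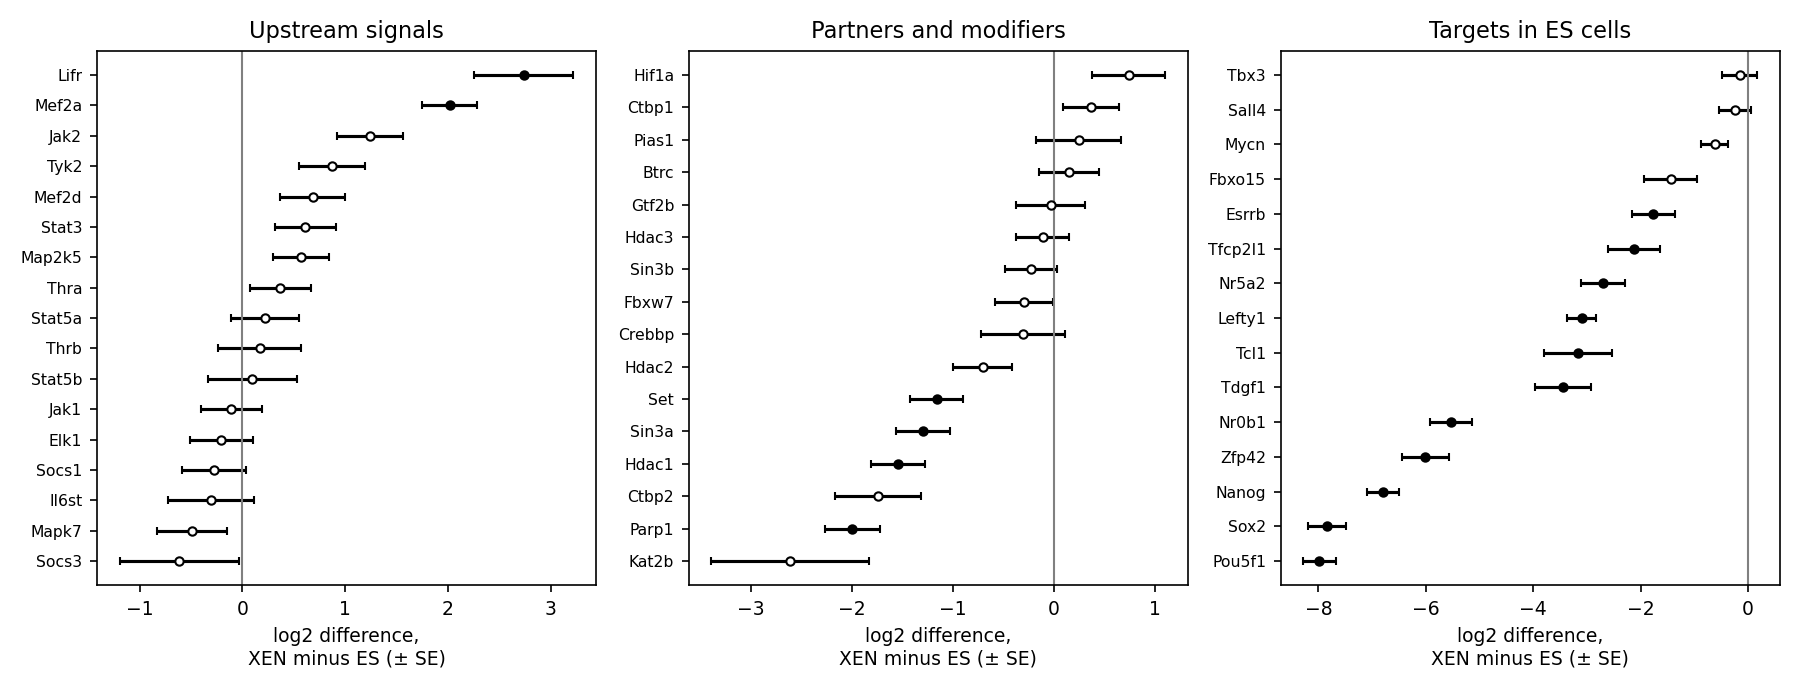
Fitted log2 difference between XEN and ES (± SE) for the tested genes of 3 lists, filled where the adjusted p was under 0.05. Mef2a and Lifr are the filled points among upstream signals, 4 partners are filled below 0, and 11 of 15 ES cell targets are filled below 0.

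Of 15 genes known as targets of Klf factors in ES cells, 11 fell, 0 rose and 4 did not pass (73.3%, against 11.0% of all genes tested). Pou5f1, Sox2, Nanog and Zfp42, 4 of the 11, are also among the ES markers that checked the labels, and 7 of the 11 were under the limit in all XEN arrays and so passed the filter only through ES. The share called is therefore a description of the list and in part repeats the check of the labels. The median was -3.09, or -3.03 with those 7 set at their bounds. The smallest p-values belonged to Pou5f1, Nanog, Sox2, Nr0b1 and Zfp42, all core or accessory pluripotency factors. The last of these were at least 30.1-fold (Nr0b1) and 45.1-fold (Zfp42) lower. A second, dim probe set of Pou5f1 did not pass (log2 difference -0.19). The 4 that did not pass were Fbxo15 (-1.44), Mycn (-0.62), Sall4 (-0.24) and Tbx3 (-0.15), which were named after their values were seen. Sall4, a zinc finger regulator of stem cells, stood at 511 units in ES and 476, 355 and 479 in the XEN cultures. Of the 11 calls, Tcl1 was lost in 2 alternatives, Tfcp2l1 in 5 and Esrrb in 4 of the 11 that tested it. Without IM8A1-I, Tfcp2l1 and Esrrb did not pass (adjusted p = 0.104 for each), and without IM8A1-II Esrrb did not (0.105).

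Of 22 tested genes known as Klf targets in other cells, 5 rose, 5 fell and 12 did not pass (45.5%, against 11.0% of all genes tested; median 0.25 against 0.03). Of the 22, 6 were under the limit on every array of 1 group and on none of the other. These passed the filter only through the latter group, and the calls Thbd, Ccnd2 and Cdkn1c are among them. The share called is therefore a description of the list. Lama1, a laminin chain of basement membrane and also one of the XEN markers, rose from 142 units to 9259, 6375 and 6066 in the XEN cultures. Plaur, the urokinase receptor, rose from 43.2 to 235, 238 and 246. Thbd, the thrombomodulin gene known as a Klf2 target in endothelium, was under the limit in ES at 11.4 units and stood at 393, 199 and 219 in XEN, at least 9.45-fold higher. Its second probe set also passed (log2 difference 3.53). Ccnd2, a D-type cyclin, was at least 8.74-fold higher and Cdkn1c, a cell cycle inhibitor, at least 8.51-fold lower. Limma adjusted p for these 5 lay between 0.00182 (Lama1) and 0.0109 (Ccnd2). With values raised to the background limit Thbd and Ccnd2 did not pass (0.0723 and 0.0852). The other 5 calls were Krt19, an epithelial keratin, higher at 2.67, and Ccnd1 (-2.78), Ccne1 (-1.22), Pdgfa (-1.39) and Eng (-1.67), lower. Each of these 5 was also lost in at least 1 alternative, Ccnd1 in 1, Krt19 in 2, Ccne1 in 3, Pdgfa in 5 and Eng in 6, so that 7 of the 10 calls were lost in some alternative and Lama1, Plaur and Cdkn1c in none of the 12. Nos3, another endothelial Klf2 target, never reached the limit, nor did S1pr1, Tgfbr1 and Tgfbr2.

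Several Klf genes are known as early response genes, and immediate early and serum response genes were read beside them. Of 19 tested, 1 rose, 1 fell and 17 did not pass (10.5%, against 11.0% of all genes tested; median 0.29 against 0.03). Ccn2, a matricellular protein, rose from 251 units to 2707, 7059 and 4464 (log2 difference 4.08 ± 0.53, limma adjusted p = 0.0122; 0.0722 with values raised to the background limit). Mcl1, a survival factor, fell from 957 to 336, 332 and 311 (-1.52 ± 0.26, adjusted p = 0.0234). Its call was lost without IM8A1-I (0.0739) or IM8A1-II (0.0639). Atf3, a stress-induced factor, stood at 51.2 in ES and 1551, 1035 and 288 in XEN without passing (adjusted p = 0.0558), while its other probe set passed as higher (2.81, adjusted p = 0.0171). Btg2 (1.02) and Ccn1 (2.48) did not pass. In IM8A1-II, the culture in 20% FBS, 4 of the 19 were at least 2-fold higher than in IM8A1-I (3.39% of all genes tested were). They were Ccn2 (1.38), Ccn1 (1.13), Ier3 (1.09) and Id1 (1.79). At least 2-fold lower were 0, but Dusp1 (-0.97), Ier2 (-0.94), Myc (-0.71), Egr1 (-0.61) and Fos (-0.50) were lower by less. The median of the 19 was -0.03, against 0.01 for all genes tested. Ier3, Id1 and these lower genes were named after their values were seen. The part of serum was not tested.

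For members that spanned at least 1 log2 unit over the 4 arrays, the genes nearest in profile were found by the Euclidean distance between centred log2 values. With only 4 arrays many genes share a profile, and the distances are a description. Nearest to Klf2 were Plcg2, a phospholipase, at 0.07 and Gbp2b, a guanylate-binding protein, at 0.07, both under the limit in all 3 XEN cultures. Plcg2 stood at 137 units in ES and 3.50, 4.30 and 4.80 in XEN. Nearest to Klf4 were Cr1l, a complement regulator, at 0.06 and the G protein gene Gna12 at 0.09. Cr1l stood at 83.0 units in ES and 248, 148 and 184 in the XEN cultures, the same order of arrays as Klf4. Nearest to Klf6 were Rnf225 at 0.07, which was under the limit in ES and XEN1-3, and the amino acid transporter gene Slc38a2 at 0.10. Slc38a2 stood at 578 in ES and 1623, 1613 and 920.4 in XEN. For Klf5 the nearest genes, Pomc and Abcc1, were farther away, at 0.35 each.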

How the data were processed

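Expression was measured on 4 MG_U74Av2 arrays, 1 ES and 3 XEN. The authors deposited 1 linear intensity value per probe set and array, the summarising software not given in the sources used here. Trimmed means (2%) lay between 150.088 and 150.095, so the arrays had already been scaled. Chip lot and fluidics messages were read from run records, per the file headers. Each array was brought to the shared trimmed mean, 66 control probe sets were dropped, the 25th percentile (10.5 units) was added and log2 was taken. The 3 XEN arrays were set against the ES array in limma 3.58.1 under R 4.3.3 (a moderated fit with variance trend, 2 residual and 3.76 prior degrees of freedom), two-sided, adjusted over 8582 probe sets. The XEN cultures are 2 lines, so p-values reflect the spread among these cultures, which stands in for that of ES. A group wholly under the limit gives a bound, the brighter group's geometric mean divided by the limit.

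Symbols came from the platform annotation. All 6 members were found in the RefSeq gene table and 5 in its promoter table. A gene in a list is represented by its tested probe set of highest mean log2 signal. Of each list up to 5 genes with the smallest p were named, while Stat3, Ctbp1, the marker genes of other cells, Krt19, Ccnd1, Ccne1, Pdgfa, Eng, Tcl1, Tfcp2l1, Esrrb and the list members said to be so in the text were also named, after their values were seen. The members and lists were chosen with earlier results of these data known. Alternatives covered scaling, offset, dim values, filter, variance trend, each XEN array left out and each XEN line counted once. The fit was tested on simulated data. The number of arrays limits the precision. Figures were drawn with matplotlib 3.10.9.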

Additional observations from a re-analysis of the deposited data

How the results depend on the processing

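Each comparison was repeated under 12 alternatives, and the differences of more than 2-fold between XEN cultures under 7. Klf2 kept its direction and its call in all 12 (log2 difference -4.19 to -1.87), and Klf3, Klf4 and Klf9 kept their direction and stayed short of the threshold. The number of Klf probe sets called was 1 in 11 alternatives and 2 without XEN1-3, where Klf6 passed, so it ranged from 1 to 2 when single XEN arrays were left out. When single XEN arrays were left out, Klf5 ranged from -0.095 (without IM8A1-I, a change of sign) to 0.78 (without IM8A1-II). The causes were not tested. Over all probe sets 912 were called, and between 366 (without IM8A1-I) and 1488 (without XEN1-3) when 1 XEN array was left out, with 444 without IM8A1-II. Scaling by the median instead of the trimmed mean moved the median difference of all tested probe sets from 0.05 to -0.04, and no Klf probe set changed its call. The counts of Klf probe sets at least 2-fold apart between XEN cultures stayed at 1 and 0 in all 7. No paired analysis was possible because the labels give the cultures no shared replicate numbers and the ES group has 1 array. With 1 ES array, the intervals of Klf3, Klf5 and Klf9 leave either direction possible. Those of Klf4 and Klf6 start just above 0, at 0.19, but are intervals before adjustment and rest on the same ES array.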
